A study of Mus musculus with 12 samples.

Results

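Ccl2, Ccl7, Ccl8, Ccl11 and Ccl12 are small secreted CC chemokines whose genes stand in a single run on mouse chromosome 11. They were chosen by gene symbol, and 5 of 5 were found among the 23329 genes listed in each library. Of the 5, 3 (Ccl2, Ccl7 and Ccl12) passed the filter on low counts, a CPM (read count scaled to the library's total) above 0.5 in every library of at least 1 group, and entered the test with 13038 genes. Ccl8 and Ccl11 did not pass it and are given as counts. Ccl12 passed it only through the embryonic LPS group, where it was highest, so its tests that use this group are not independent of the filter.

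Strand-specific mRNAseq was made from primary stromal cells of the small intestine of C57BL6/J mice, labelled intestinal myofibroblast, of embryos at E14.5 (embryonic stroma) or of adult mice (adult stroma). The cells were used at passage 2 to 3 and cultured for 6 h with LPS of Escherichia coli O111:B4, given in the labels as 10 µg/µl, or with PBS as vehicle. Each stage thus had an LPS and a PBS group, 4 groups of 3 libraries in all, and each embryonic culture was grown from 6 pooled embryos and the adult cultures from 3 mice. The labels name no transgene or deletion, and all 4 groups shared the same digestion, medium and Y27632 during growth. Before digestion, adult intestines were opened and their villi scraped off, whereas the smaller embryonic intestines were cut into pieces. Tissue preparation thus differed with stage, and the 2 cannot be told apart.

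Chemokines guide leukocytes along a gradient through receptors that couple to G proteins. Ccl2, Ccl7, Ccl8 and Ccl12 are known as attractants of monocytes: Ccl2, Ccl7 and Ccl12 act through Ccr2, which lets monocytes leave the bone marrow and enter inflamed tissue, and mouse Ccl8 is also known for acting through Ccr8. Ccl11, or eotaxin, acts through Ccr3 on eosinophils, and Ccl7 can bind Ccr3 as well. In fibroblasts, LPS and inflammatory cytokines induce Ccl2 and Ccl7 through NF-kB, interferons are known inducers of Ccl12 and Ccl8, and IL-4 and IL-13 are the classic inducers of Ccl11 through Stat6.

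The genes lie on the + strand of chromosome 11 in the order Ccl2, Ccl7, Ccl11, Ccl12 and Ccl8 in RefSeq GRCm38.p6, the build of the deposited counts. Ccl2 spans chr11:82035577-82037452, Ccl7 spans chr11:82045712-82047525 and Ccl11 spans chr11:82057832-82062955. Ccl12 spans chr11:82101845-82103399 and Ccl8 spans chr11:82115185-82116799. The whole run covers 81.2 kb, and the widest gap, 38.9 kb between Ccl11 and Ccl12, separates the first 3 genes from the last pair. Each main transcript in GENCODE (GRCm38) has 3 exons. The CC family is named for a pair of adjacent cysteines near the start of the mature protein, and the coding stretch around it is shown because it shows how alike and how different the 5 genes are. Each stretch is 30 coding bases, with the 2 cysteine codons in capitals:
Ccl2: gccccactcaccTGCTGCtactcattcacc
Ccl7: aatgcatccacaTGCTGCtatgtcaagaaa
Ccl8: gctccagtcaccTGCTGCtttcatgtacta
Ccl11: atcccaacttccTGCTGCtttatcatgacc
Ccl12: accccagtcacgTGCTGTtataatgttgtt

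Outside these codons the coding sequences differed widely. Ccl2 was 46.7% to 48.9% identical to the other members over the aligned coding bases, with the gaps counted, since its coding part is longer (444 bases against 291 to 312). The others were 63.0% to 66.3% identical to each other. The longest exact run that any pair of main transcripts shared was 23 bases, between Ccl2 and Ccl7, which is shorter than the 75-base reads, so a read that matched 1 of these transcripts along its whole length could not match another.

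RefSeq promoter sequences, 250 bases before to 50 after the gene start, were matched for 2 of the 5 members, Ccl12 and Ccl8, which stand side by side. The 250 bases upstream are shown for both, from chr11:82101595-82101844 for Ccl12 and chr11:82114935-82115184 for Ccl8 (GRCm38.p6, + strand), with motif matches in capitals:
Ccl12: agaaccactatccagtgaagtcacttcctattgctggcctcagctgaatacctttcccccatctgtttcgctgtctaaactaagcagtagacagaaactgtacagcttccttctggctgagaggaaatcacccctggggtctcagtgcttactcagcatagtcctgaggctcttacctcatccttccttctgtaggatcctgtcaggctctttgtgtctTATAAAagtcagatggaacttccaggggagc
Ccl8: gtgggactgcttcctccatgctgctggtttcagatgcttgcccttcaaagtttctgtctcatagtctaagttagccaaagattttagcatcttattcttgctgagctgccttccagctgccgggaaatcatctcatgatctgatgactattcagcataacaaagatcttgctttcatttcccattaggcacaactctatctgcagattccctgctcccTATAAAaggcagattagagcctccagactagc
The search covered both strands for the kappaB motif, AP-1 (TGANTCA), STAT (TTCNNNGAA), the STAT6 motif, C/EBP (TTGCNNAA) and the TATA box (TATAAA). The match in both windows was a TATA box, starting 31 bases before the Ccl12 start and 32 bases before the Ccl8 start. Among all 32851 RefSeq promoters of this length, 13.6% held this motif, 8.46% held kappaB, 7.81% AP-1, 8.30% STAT, 6.95% STAT6 and 10.8% C/EBP. No other motif of the 6 was spelled in either window.

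Across the 12 libraries, 18850224 to 32672370 reads were assigned to genes, and 3 counts, taken as the smallest detectable level, came to 0.0907 to 0.145 CPM, which covers counting error only. CPM are given after TMM normalisation. Of the myofibroblast markers, Acta2, smooth muscle actin, stood between 6619 and 14971 CPM in all libraries and Des, desmin, between 215.6 and 2577 CPM. The 12 macrophage markers, summed, ranged from 209 to 2337 CPM in embryonic LPS, 248 to 2932 CPM in embryonic PBS, 17.6 to 216 CPM in adult LPS and 21.0 to 201 CPM in adult PBS libraries, and none of them was at 0 in any group. The 8 endothelial markers summed to 1758 and 1824 CPM in the libraries of adult replicate 2, to 365 and 397 CPM in those of adult replicate 3 and to at most 37.0 CPM in the others. Markers of eosinophils summed to at most 0.817 CPM and those of T and B cells to at most 0.165 CPM. The 6 epithelial markers summed to 22.0 to 60.0 CPM in embryonic and 7.52 to 13.9 CPM in adult libraries. Most of this was Krt20, higher in embryonic stroma with PBS and with LPS (edgeR adjusted p = 0.0298 and 0.0282), while Epcam was at or below 0.487 CPM.

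Per exon length, Ccl2 was the member with the highest level under LPS in both stages, and it rose from a lower basal level in embryonic than in adult stroma to levels that did not differ beyond their spread. In embryonic stroma with PBS, Ccl2 stood at 6.00, 9.60 and 9.32 CPM in replicates 1, 2 and 3. With LPS, these cultures held 1246, 604 and 1939 CPM. Replicate 2 was the lowest LPS library and had the highest PBS value, and even so the groups were far apart: the rise between same-numbered libraries was 208-fold, 63.0-fold and 208-fold. In the edgeR quasi-likelihood test with Benjamini-Hochberg adjustment over all 13038 genes, Ccl2 rose by 7.26 on the log2 scale (SE 0.50, n = 3 against 3, adjusted p = 0.000149), a fitted fold of 154.

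In adult stroma with PBS, Ccl2 stood at 39.1, 78.9 and 57.8 CPM, above all 3 embryonic PBS libraries. With LPS, the adult cultures held 1766, 1530 and 2006 CPM. The adult LPS libraries differed by 1.31-fold from lowest to highest and the embryonic ones by 3.21-fold, and the embryonic and adult LPS ranges overlapped. Same-numbered adult libraries rose 45.1-fold, 19.4-fold and 34.7-fold, each less than the smallest embryonic rise. The fitted rise was 4.92 on the log2 scale (SE 0.44, edgeR adjusted p = 0.00165), a fold of 30.3.

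Ccl7, which shares receptor Ccr2 with Ccl2 and also binds the eosinophil receptor Ccr3, followed the same order of groups, at a lower level per exon length. Embryonic PBS libraries held 3.54, 4.17 and 4.02 CPM and embryonic LPS libraries 321, 153 and 359 CPM. Adult PBS libraries held 14.2, 19.3 and 14.6 CPM and adult LPS libraries 556, 389 and 453 CPM. For Ccl7 all 3 adult libraries stood above all 3 embryonic ones under PBS and also under LPS. Ccl7 rose by 6.16 (SE 0.34, edgeR adjusted p = 2.36e-05) on the log2 scale in embryonic stroma and by 4.87 (SE 0.31, adjusted p = 0.000127) in adult stroma, or 71.7-fold and 29.2-fold. The lowest rise between same-numbered libraries was again in replicate 2 of each stage, 36.6-fold in embryonic and 20.1-fold in adult stroma, and unlike for Ccl2 these rises overlapped between the stages, with 39.1-fold as the highest adult value.

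**Figure D1:**
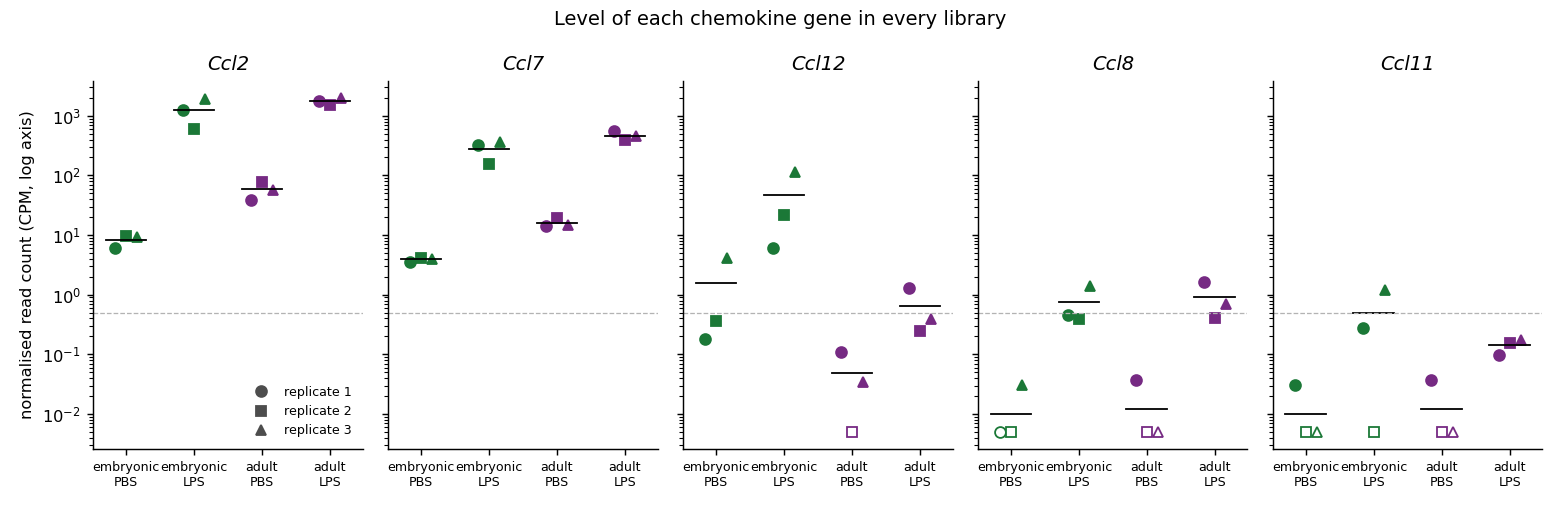
Normalised read counts (CPM, log axis) of each gene in the 12 libraries, with embryonic stroma in green and adult stroma in purple, 1 symbol per replicate number, the group mean as a black bar and the filter at 0.5 CPM as a dashed line. Open symbols at the bottom mark libraries with 0 counts. Ccl2 and Ccl7 under LPS stand at 153 to 2006 CPM, far above PBS in both stages, while Ccl12 spreads from 6.17 to 113 CPM in embryonic LPS libraries and Ccl8 and Ccl11 stay below 2 CPM.

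Of the 3 members tested, 2 were called as higher with LPS in embryonic stroma, where 1.87% of all tested genes (244 of 13038) were called higher at adjusted p under 0.05 and a log2 change of at least 2. The same 2 were called in adult stroma, where 0.422% (55 genes) were called higher. By size of the log2 change, Ccl2 ranked 58 and Ccl7 ranked 84 of all tested genes in embryonic stroma, and they ranked 58 and 61 in adult stroma.

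Whether the LPS rise differed between the stages was asked with an interaction term. The rise of Ccl2 was larger in embryonic stroma by 2.34 on the log2 scale (SE 0.54, unadjusted p = 0.00146 and adjusted p = 1 in edgeR), and that of Ccl7 by 1.29 (SE 0.38, adjusted p = 1). Neither passed, and 0% of genes were called for the interaction, with 293 genes at an unadjusted p under 0.05. With the replicate number as a block the differences were 2.18 for Ccl2 (edgeR adjusted p = 0.141) and 1.22 for Ccl7 (adjusted p = 0.334), and 0.844% of genes (110) were called, with no member among them. DESeq2 called 22 genes with a larger and 3 with a smaller rise in embryonic stroma, and Ccl2 was among the former (log2 difference 2.35, adjusted p = 0.0181).

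Basal levels, by contrast, differed between the stages in the test. With PBS, Ccl2 was lower in embryonic than in adult stroma (log2 difference -2.82, SE 0.41, edgeR adjusted p = 0.00603), and so was Ccl7 (log2 difference -2.03, SE 0.28, adjusted p = 0.00512). These fits put embryonic Ccl2 at 0.142 and embryonic Ccl7 at 0.244 of the adult level. At this comparison 2 of the 3 tested members were called lower in embryonic stroma, where 2.57% of all genes (335) were. With LPS, the differences were -0.48 for Ccl2 (SE 0.38, adjusted p = 0.519) and -0.74 for Ccl7 (SE 0.27, adjusted p = 0.139), and neither passed in edgeR. Adult replicate 2 held the highest endothelial marker sums and the highest adult PBS values of Ccl2 and Ccl7. Without both of its libraries, the PBS differences were -2.55 for Ccl2 (edgeR adjusted p = 0.0273) and -1.88 for Ccl7 (adjusted p = 0.0248). Adult replicate 3, which stayed in this fit, also held endothelial markers (365 CPM with LPS and 397 CPM with PBS).

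Ccl12, a Ccr2 ligand that mice have beside Ccl2, differed from both in that it was at a higher level in embryonic than in adult stroma. Embryonic PBS libraries held 6, 12 and 138 counts, or 0.182, 0.366 and 4.17 CPM. Embryonic LPS libraries held 6.17, 21.8 and 113 CPM. Replicate 3 was the highest and replicate 1 the lowest under both treatments, and the highest PBS library came near the lowest LPS library. Same-numbered embryonic libraries rose 34.0-fold, 59.7-fold and 27.1-fold, so the rise was far more alike between cultures than the levels, which spread 23.0-fold under PBS and 18.3-fold under LPS.

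Without the replicate block, the LPS rise of Ccl12 in embryonic stroma was 4.91 on the log2 scale with SE 1.35 and did not pass (edgeR adjusted p = 0.106). It was 3.16 without the LPS library of embryonic replicate 3 (edgeR adjusted p = 0.520), 7.41 without its PBS library (adjusted p = 0.0439) and 5.66 without both (adjusted p = 0.0404). With the block it was 5.11 with SE 0.23 and passed (adjusted p = 4.72e-06). In that fit all 3 tested members were called higher in embryonic stroma, where 3.02% of genes (394) were.

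In adult stroma Ccl12 was close to the detection limit with PBS. These libraries held 3, 0 and 1 counts, and the adult LPS libraries held 40, 8 and 9 counts, or 1.30, 0.247 and 0.388 CPM. Every LPS library exceeded every PBS library. Pooled over the libraries, 57 counts with LPS against 4 with PBS gave a ratio of 12.7 (95% interval 4.69 to 48.1, counting error only). The fitted rise was 3.56 (SE 1.91, edgeR adjusted p = 1) without the block and 3.61 (SE 0.54, adjusted p = 0.00760) with it, and with the block 3 of 3 tested members and 1.6% of genes (209) were called higher in adult stroma.

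Between the stages with LPS, Ccl12 was higher in embryonic stroma by 6.17 on the log2 scale (SE 1.46, edgeR adjusted p = 0.0401), and it was the 1 member of 3 called, where 5.31% of genes (692) were called in either direction. Ccl12 had entered the test only through the embryonic LPS group, so this call is not independent of the filter. Without the filter the difference was also 6.17 (edgeR adjusted p = 0.044). The ranges did not overlap, with 6.17 CPM as the lowest embryonic and 1.30 CPM as the highest adult value. The call did not hold without embryonic LPS replicate 3 (4.43, edgeR adjusted p = 0.109), without any 1 of the 6 adult libraries (5.77 to 7.22, adjusted p = 0.0539 to 0.163), or without both libraries of adult replicate 2 (5.75, adjusted p = 0.145). With PBS the difference was 4.81 (SE 1.81, edgeR adjusted p = 0.170) and did not pass; it was 2.32 without embryonic PBS replicate 3, which held 138 of the 156 embryonic PBS counts, and 6.02 without adult PBS replicate 1.

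**Figure D2:**
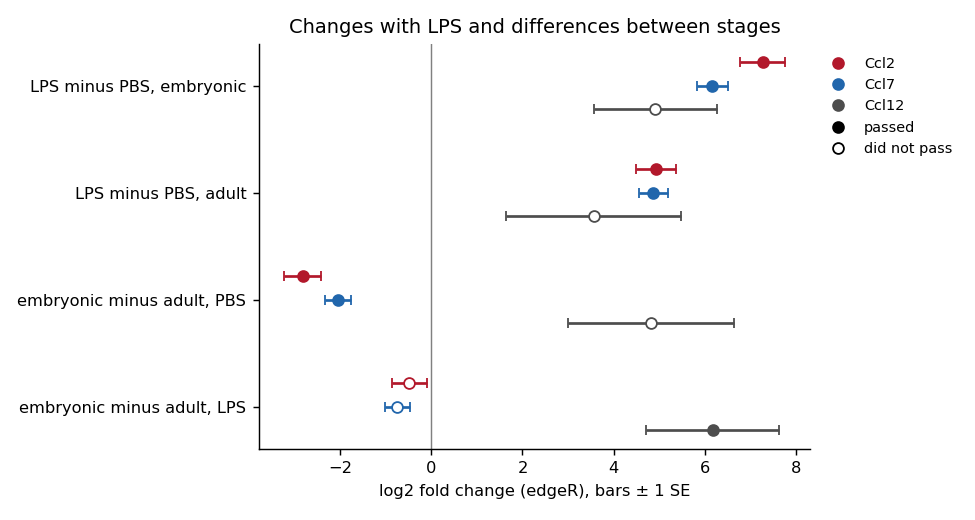
Fitted log2 fold changes of Ccl2, Ccl7 and Ccl12 (horizontal axis, bars ± 1 SE) for LPS against PBS in each stage and for embryonic against adult stroma under each treatment, from edgeR without the replicate block, with filled points for those that passed. Ccl2 and Ccl7 lie at -2.82 and -2.03 between stages with PBS and at -0.48 and -0.74 with LPS, whereas Ccl12 lies at 4.81 and 6.17 with wide bars.

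The Ccl12 level moved with the macrophage markers. In embryonic LPS replicates 1, 2 and 3 the 12 markers summed to 209, 1056 and 2337 CPM, in the order of the Ccl12 levels, and in embryonic PBS to 248, 472 and 2932 CPM. In adult stroma they summed to 216, 17.6 and 51.1 CPM with LPS and to 201, 21.0 and 50.6 CPM with PBS, and replicate 1 again had the most Ccl12. Per 1000 CPM of these markers, Ccl12 stood at 29.6, 20.7 and 48.3 CPM in embryonic LPS and 6.01, 14.0 and 7.59 CPM in adult LPS libraries. With PBS these values were 0.732, 0.775 and 1.42 CPM in embryonic and 0.550, 0 and 0.681 CPM in adult stroma. Embryonic and adult LPS libraries of replicate 1 had nearly the same marker sum, 209 and 216 CPM, and Ccl12 levels of 6.17 and 1.30 CPM. None of the 12 macrophage markers passed the test with LPS or between stages in edgeR, and the part of these cells in the Ccl12 level was not tested. In bulk libraries, fewer cells of a type and less RNA per cell cannot be told apart.

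Ccl2 did not follow the macrophage markers in the same way. Its highest adult LPS value, 2006 CPM in replicate 3, came with a marker sum of 51.1 CPM, and its lowest embryonic LPS value, 604 CPM in replicate 2, with a sum of 1056 CPM. In adult LPS replicate 2, where the markers summed to 17.6 CPM, Ccl2 was at 1530 CPM and Ccl7 at 389 CPM. The highest embryonic LPS value of Ccl2, 1939 CPM in replicate 3, came with the highest sum, 2337 CPM. Replicate 2, lowest in Ccl2 with LPS in each stage, also had the lowest LPS sum of the stromal markers, 10835 CPM in embryonic and 11338 CPM in adult stroma. With PBS, replicate 2 again had the lowest stromal sums, 12418 CPM in embryonic and 11943 CPM in adult stroma. There it held the highest Ccl2 of each stage, 9.60 and 78.9 CPM. The part of any cell type in the Ccl2 level was not tested.

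**Figure D3:**
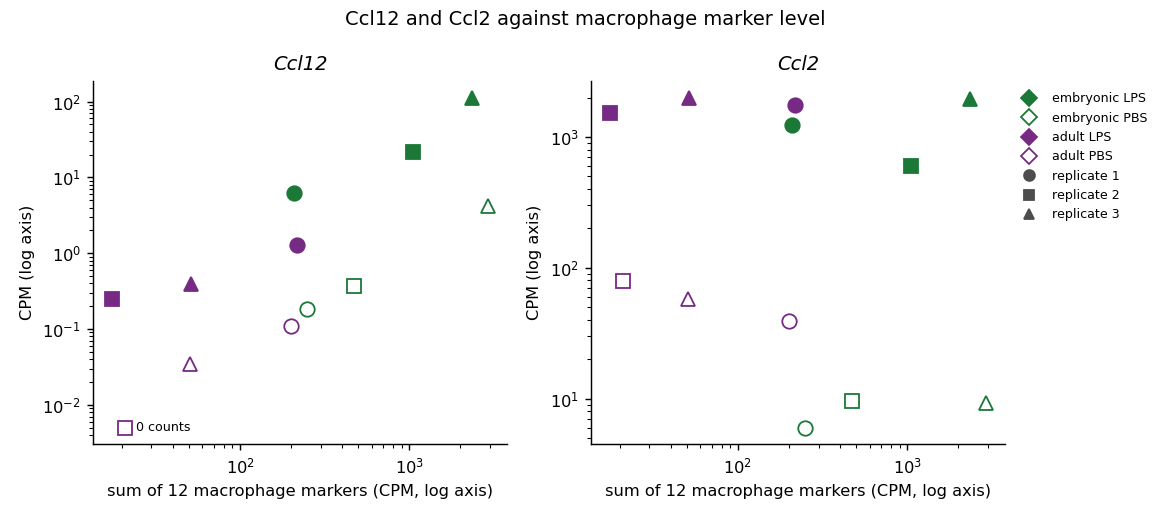
Ccl12 (left) and Ccl2 (right) in CPM against the sum of 12 macrophage markers in CPM, both on log axes, for the 12 libraries, with LPS as filled and PBS as open symbols and the replicate number as the shape. With LPS, Ccl12 goes from 0.247 CPM at the lowest marker sum to 113 CPM at the highest, whereas Ccl2 with LPS stays between 604 and 2006 CPM over the whole range of sums.

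Ccl8, a monocyte attractant, was almost without counts under PBS and was found in every LPS library. Embryonic PBS libraries held 0, 0 and 1 counts and embryonic LPS libraries 13, 12 and 36 counts. Adult PBS libraries held 1, 0 and 0 counts and adult LPS libraries 50, 13 and 16 counts. All 6 LPS libraries thus stood above all 6 PBS libraries, at 0.395 to 1.62 CPM. The ratio of counts pooled over the libraries was 71.4 (95% interval 12.3 to 2866) in embryonic and 70.3 (12.3 to 2812) in adult stroma, intervals that cover counting error only and not the spread between libraries. Ccl8 fell short of the filter because at least 1 LPS library of each stage was under 0.5 CPM. Without the filter edgeR gave a rise of 5.70 (SE 1.11, adjusted p = 0.0267) in embryonic and 5.72 (SE 1.13, adjusted p = 0.0660) in adult stroma.

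Ccl11, the eosinophil attractant, was the member with the lowest level per exon length in LPS libraries of both stages. Embryonic PBS libraries held 1, 0 and 0 counts and embryonic LPS libraries 8, 0 and 31 counts. Adult PBS libraries held 1, 0 and 0 counts and adult LPS libraries 3, 5 and 4 counts. The embryonic LPS libraries ranged from no count, which allows up to 3 counts, to 1.21 CPM in replicate 3, and the adult LPS libraries from 0.0975 to 0.173 CPM. Pooled ratios of LPS to PBS were 45.7 (95% interval 7.73 to 1849) in embryonic stroma, where replicate 3 held most counts, and 10.7 (1.58 to 457) in adult stroma, again with counting error only. Neither passed without the filter (edgeR log2 5.10, adjusted p = 0.186, and 3.07, adjusted p = 1). Without the filter 3 of the 5 members were called in embryonic stroma, where 1.25% of genes were called higher, and 2 of the 5 in adult stroma, where 0.282% were.

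Levels can be set beside each other between members only per length of exon. This length was the union of exons over all annotated transcripts. For Ccl2 it was 1138 bases against 813 for the main transcript, and for the other members both were equal. Per main transcript, the Ccl2 level and share would be higher. Per kb of exon, Ccl2 averaged 1110 ± 586 CPM in embryonic LPS and 1553 ± 209 CPM in adult LPS libraries (SD, n = 3), and Ccl7 346 ± 137 and 582 ± 105 CPM. Ccl2 made up 68.9% to 75.6% of the summed level of the 5 genes per kb in the LPS libraries of both stages and Ccl7 18.9% to 30.8%. Ccl12 made up 0.763%, 5.32% and 8.89% in embryonic LPS replicates 1, 2 and 3 and at most 0.107% in adult LPS libraries. In embryonic PBS libraries Ccl2 made up 38.9% to 58.9% and Ccl12 as much as 36.9%, in replicate 3, and in adult PBS libraries Ccl2 made up 65.6% to 74.2%. Ccl8 and Ccl11 together stayed under 1% in every library.

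Ccl2 and Ccl7 differed in their proportion under PBS. There were 0.591, 0.435 and 0.432 Ccl7 counts for each Ccl2 count in embryonic PBS libraries and 0.363, 0.245 and 0.253 in adult PBS libraries. With LPS there were 0.257, 0.253 and 0.185 in embryonic and 0.315, 0.254 and 0.226 in adult stroma. The embryonic PBS values were above all others. The difference from adult PBS, and that from embryonic LPS, each gave p = 0.1 in a two-sided exact permutation test, the smallest p that 3 against 3 libraries allow. The other 2 comparisons gave exact permutation p = 0.5 between LPS libraries of the stages and p = 0.7 between adult LPS and PBS. With 4 comparisons, none could pass.

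**Figure D4:**
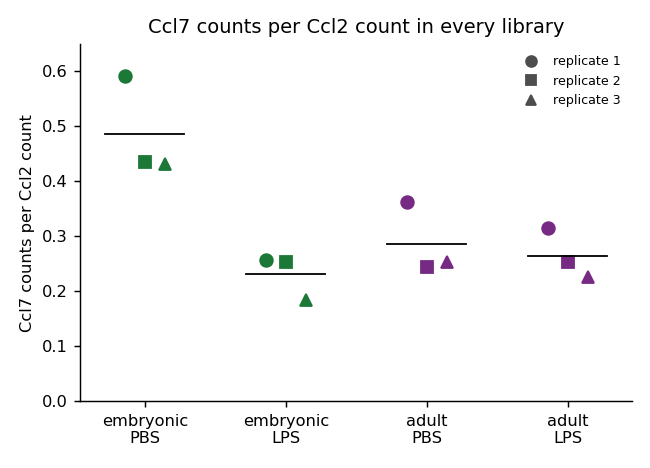
Ccl7 counts for each Ccl2 count in the 12 libraries, with 1 symbol per replicate number, embryonic stroma in green, adult stroma in purple and the group mean as a bar, on an axis from 0. The embryonic PBS libraries stand at 0.432 to 0.591 and the 9 others at 0.185 to 0.363.

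Over the 12 libraries, log2 CPM of Ccl2 and Ccl7 correlated with r = 0.996, and those of Ccl12 with Ccl2 and Ccl7 with r = 0.431 and 0.433, as a description, since libraries share their stage and treatment. The tested genes most like Ccl2 by this measure were Hivep1 (r = 0.984), F830016B08Rik (r = 0.978) and Nfkbie (r = 0.977), an inhibitor of NF-kB. Those most like Ccl7 were Cxcl1, a neutrophil chemokine (r = 0.988), Hivep1 (r = 0.983) and Nfkbie (r = 0.979). Those most like Ccl12 were Oas1a, an antiviral enzyme that interferons induce (r = 0.992), Bcl2a1a (r = 0.990) and Ebi3, a cytokine subunit (r = 0.987). No gene was named for both Ccl2 and Ccl12.

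Beyond the run of members, the annotated protein-coding neighbours were Spaca3, 1700071K01Rik and Asic2 on the Ccl2 side and Ccl1, Tmem132e and Cct6b on the Ccl8 side. The 3 on the Ccl2 side were at or below 0.363 CPM in all libraries. Ccl1, the next chemokine gene, had no count with PBS and up to 1.33 CPM with LPS in embryonic and 0.682 CPM in adult stroma, with at least 1 embryonic LPS library at 0. Tmem132e, a membrane protein gene, was at 0.0605 to 0.0908 CPM with PBS and 1.22 to 4.87 CPM with LPS in embryonic stroma. It had no count with PBS and 1.98 to 6.37 CPM with LPS in adult stroma, and it passed in both (edgeR adjusted p = 0.0102 in embryonic and 0.0101 in adult stroma). Tmem132e had entered the test only through the LPS groups, so these calls are not independent of the filter. Cct6b stayed between 0.145 and 0.394 CPM in all 12 libraries.

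Of 7 receptor and scavenger receptor genes listed, 3 passed the filter, among them Ccr1 and Ackr4. None of the 3 was called with LPS in either stage, where 1.87% (embryonic) and 0.422% (adult) of all tested genes were called higher. At such shares, 3 genes without a call do not stand apart from all tested genes. Ccr2, the main receptor of Ccl2, was at or below 0.393 CPM, and Ccr3, the receptor of Ccl11, at or below 0.593 CPM. Ccr1, a receptor of Ccl7 carried by myeloid cells, was at 4.20 to 43.7 CPM in embryonic and 0.138 to 0.663 CPM in adult PBS libraries and was higher in embryonic stroma (log2 difference 5.76, edgeR adjusted p = 0.0300), as were the macrophage marker sums above in 3 of 3 embryonic PBS libraries. Ccr1 was the 1 call among the 3 tested receptor genes, where 197 of 13038 genes were called higher. It had entered the test only through the embryonic groups, so this call between stages is not independent of the filter. In embryonic LPS libraries Ccr1 was at 1.42 to 6.00 CPM. Its log2 change there was -2.47 (edgeR adjusted p = 0.366), and -1.97 (adjusted p = 0.00561) with the block, short of the fold threshold of 2. Ackr4, a scavenger of other CC chemokines, was at 2.18 to 7.90 CPM in embryonic and 9.15 to 16.6 CPM in adult libraries, which did not overlap, with no call between the stages.

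Of 15 other CC chemokines listed, 10 were tested. In embryonic stroma 6 of them rose with LPS (Ccl3, Ccl4, Ccl5, Ccl9, Ccl20 and Ccl22), and the median log2 change of the 10 was 6.02 against 0.00 for all tested genes. In adult stroma 2 rose (Ccl5 and Ccl20) without the replicate block and 6 with it. Ccl5 and Ccl20 had entered the test only through the LPS groups, so their LPS calls are not independent of the filter. Of all tested genes, 1.87% were called higher in embryonic and 0.422% in adult stroma, or 3.02% and 1.6% with the block. Ccl5, a T cell and monocyte attractant, rose by 11.20 in embryonic (edgeR adjusted p = 0.00127) and by 8.36 in adult stroma (adjusted p = 0.00683). Ccl3, Ccl4 and Ccl22 were higher in embryonic than in adult stroma with LPS, like Ccl12 and unlike Ccl2 and Ccl7. They were 3 of the 10, where 396 of 13038 tested genes were called higher. Ccl22 had entered the test only through the embryonic LPS group, so its calls that use this group are not independent of the filter. Ccl3 stood at 175 to 2059 CPM in embryonic and 4.31 to 14.9 CPM in adult LPS libraries. In these groups the macrophage markers summed to 209 to 2337 and 17.6 to 216 CPM. The eotaxins Ccl24 and Ccl26 were at or below 0.0863 CPM.

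Among 24 genes of the signals known to induce these chemokines, 22 were tested. In embryonic stroma 9 rose, among them Nfkb1, Nfkb2, Rel, Relb, Nfkbia, Irf1, Irf7 and Ifnb1, and in adult stroma 5 rose (Nfkb1, Nfkb2, Relb, Nfkbia and Irf1), or 6 with the block. The shares of all tested genes called higher were 1.87% in embryonic and 0.422% in adult stroma, or 3.02% and 1.6% with the block. Ifnb1 had entered the test only through the embryonic LPS group, so its embryonic call is not independent of the filter. Nfkbia, the NF-kB inhibitor that NF-kB itself induces, rose by 4.27 in embryonic (edgeR adjusted p = 0.00162) and by 3.33 in adult stroma (adjusted p = 0.00965). Irf7, which drives interferon genes, rose by 5.76 in embryonic stroma (adjusted p = 0.00603) and stood at 1.73 in adult stroma (adjusted p = 0.725), and its rise differed between the stages with the block. Il4 and Il13, the inducers of Ccl11, were at or below 0.0390 CPM in all libraries, while their receptor chain Il4ra was at 6.72 CPM or more and Stat6 was between 84.2 and 116 CPM in embryonic libraries. Il1r1, the interleukin-1 receptor, was lower in embryonic than in adult stroma with PBS (log2 difference -1.99, edgeR adjusted p = 0.0466). It was the only 1 of the 22 called at this comparison, where 2.57% of all tested genes were called lower.

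Of 9 genes for decay of chemokine mRNA or trimming of the protein, Zc3h12a rose with LPS in both stages. Zc3h12a encodes a ribonuclease that degrades inflammatory mRNAs, and it rose by 3.92 in embryonic (edgeR adjusted p = 0.00228) and by 3.83 in adult stroma (adjusted p = 0.00683). With the replicate block 3 of the 9 rose in each stage, Mmp3 and Mmp9, matrix proteases, beside Zc3h12a. Mmp3 had entered the test only through the adult LPS group, so its adult call is not independent of the filter. All tested genes called higher came to 3.02% in embryonic and 1.6% in adult stroma with the block, and to 1.87% and 0.422% without it. Dpp4, a peptidase that trims Ccl11, stood at 7.24 to 45.1 CPM in embryonic libraries with no call.

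Of 10 genes for adhesion, growth or survival of monocytes and eosinophils, 9 were tested. In embryonic stroma 6 rose with LPS (Icam1, Vcam1, Cx3cl1, Csf2, Tslp and Sele), in adult stroma 4 rose (Vcam1, Csf2, Tslp and Sele), and with the block 7 rose in each. For all tested genes the shares called higher were 1.87% in embryonic and 0.422% in adult stroma, or 3.02% and 1.6% with the block. Csf2 and Sele had entered the test only through the LPS groups, so their LPS calls are not independent of the filter. Vcam1, which binds monocyte integrins, rose by 4.40 (edgeR adjusted p = 0.00391) in embryonic and by 3.69 (adjusted p = 0.0178) in adult stroma. With PBS, Vcam1, Sele and Selp were lower in embryonic stroma, as Ccl2 and Ccl7 were. They were 3 of the 9, where 2.57% of all tested genes were called lower. Sele and Selp mark endothelium, whose marker sums were highest in adult replicate 2 and next highest in adult replicate 3. Il5, the eosinophil growth factor, was at or below 0.264 CPM.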

How the data were processed

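Reads were trimmed and then mapped by the authors to GRCm38.p6 (mm10) with STAR, keeping unique hits that carried no more than 1 mismatch. The deposited values are raw read counts per gene symbol and library, for both strands together and for each strand. Sense-strand counts were used here. The opposite strand held 1.14% to 1.98%, and reads in no single gene, left out, 8.69% to 9.85%.

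Counts were fitted in R 4.3.3 with edgeR 4.0.16 (quasi-likelihood, TMM, all 12 libraries, 4 groups), with Benjamini-Hochberg adjustment over 13038 genes. LPS calls needed adjusted p under 0.05 and an absolute log2 change of at least 2, and stage and interaction calls adjusted p under 0.05. The standard error was the log2 change over the square root of F, and log2 CPM used a prior count of 2. Same-numbered LPS and PBS libraries deviated together from their group means (correlations 0.709 to 0.784 in embryonic and 0.610 to 0.849 in adult stroma), so the numbers were taken to pair them within a stage, and the fit with the replicate block is given where it changes a call. DESeq2 1.42.0 was an alternative. The edgeR fit without the block was tested on simulated counts that held no replicate effect. The fits with a block and DESeq2 were not tested in this way. Replicates differed by more than sampling noise.

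Named genes are the members, genes of lists written from general knowledge, the 3 genes most like each member, and the 3 nearest protein-coding genes on either side. The members and lists were chosen with earlier results of these data known, and the Ccl7 to Ccl2 proportion was tested after its values were seen. Ackr1, Ackr2, Ackr4, Asic2, Adgre1 and Siglecf were matched through older symbols. Some genes of the lists are counted but not reported by name here. Python 3.11.15, Biopython 1.88 and matplotlib 3.10.9 were used.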

Additional observations from a re-analysis of the deposited data

Results flagged for a closer look

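Counts on the strand opposite to Ccl2 and Ccl7, which the main comparisons did not use, were higher in LPS than in PBS libraries. The lowest embryonic LPS library held 49 such counts for Ccl2 against at most 3 with PBS, and the lowest adult LPS library 73 against at most 10. For Ccl7 the lowest embryonic LPS library held 21 against at most 2 with PBS, and the lowest adult LPS library 24 against at most 3. In the LPS libraries these counts were 0.138% to 0.542% of the Ccl2 counts on both strands and 0.228% to 1.05% of those of Ccl7, and in the PBS libraries 0% to 0.943% and 0% to 1.44%, ranges that overlap.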

How the results depend on the processing

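The calls of Ccl2 and Ccl7 with LPS in both stages and between stages with PBS held in all alternatives run. With LPS in embryonic stroma, 2 members were called, and 3 with the replicate block, with DESeq2 and with no filter, and 2 to 3 when 1 library was left out. The main fit called 244 of 13038 genes higher, the block 394 and DESeq2 342. With no filter 235 of 18810 were called higher, and 78 to 297 genes with 1 library left out. Leaving out both libraries of embryonic replicate 3 or of adult replicate 2, alternatives added after seeing the data, gave 3. These fits called 187 of 13138 and 175 of 13169 genes higher. In adult stroma 2 were called, and 3 with the replicate block and 2 to 3 with 1 library left out. Genes called higher there numbered 55 in the main fit, 209 with the block and 4 to 91 with 1 library left out. The added member was Ccl12, or Ccl8 with no filter or without adult LPS replicate 2 or adult replicate 2. In the interaction DESeq2 called 1 (Ccl2), the other alternatives 0, and 0 with 1 library left out. Between stages with PBS DESeq2 called 3. It called 760 genes higher and 792 lower there of 13038, against 197 and 335 in the main fit. Between stages with LPS the 1 call, Ccl12, was 0 at adjusted p under 0.01, 0 without both libraries of adult replicate 2, and 0 to 1 with 1 library left out. The interaction of Ccl12, 1.35, turned to -0.39 without embryonic LPS replicate 3 and ranged from there to 3.85 (without embryonic PBS replicate 3) with 1 library left out, never passing. The cause was not tested. The block changed no other call of a member; a block across stages changed none, and same-numbered libraries of the 2 stages did not deviate together (correlations -0.306 to -0.002). Depth limits Ccl8, Ccl11 and adult Ccl12, whose PBS libraries held 0 to 3 counts.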
